A study of Mus musculus with 12 samples.

Results

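The genes of DNA replication were followed through the response of cardiac macrophages to a freezing injury of the heart. The set was a named list of 44 genes, and all 44 were found among the 14460 genes of the deposited table. They fall into 10 roles at the replication fork or before it: origin recognition and licensing (5 genes), the MCM helicase (6), helicase activation (6), primase and polymerases (7), the sliding clamp and its loader (6), single-strand binding (3), Okazaki fragment joining (2), deoxynucleotide supply (4), maintenance methylation (1) and regulators of the G1/S transition (4). All 44 reached the minimum mean signal of 1 and were tested; Ccne1, with group means of 0.869, 0.803, 2.52 and 0.429 at days 0, 3, 7 and 30, passed that minimum through day 7.

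RNA was sequenced from GFP-positive cells of the hearts of Cx3cr1 GFP/+ mice aged 2-3 month, which carry GFP in place of 1 allele of the receptor gene Cx3cr1, an allele shared by every group, so that monocytes and macrophages fluoresce. Uninjured hearts without any operation gave the day 0 group, and the other 3 groups came 3, 7 and 30 days after cryoinjury, which models myocardial infarction by freezing; each of the 4 groups had 3 libraries. Cells of days 0, 7 and 30 came from a Ly6c-low, CX3CR1-high gate, and cells of day 3 from a Ly6c-high, CX3CR1-low gate. In each comparison with day 3, time after injury and sorting gate therefore cannot be told apart. The labels call the 3 libraries of a group independent biological replicates and do not give the number of hearts in each.

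Before a cell copies its DNA, the origin recognition complex, CDC6 and CDT1 load the ring of MCM2 to MCM7 onto origins in G1, and CDC45 and the GINS complex turn that ring into the active helicase as S phase begins. Primase and polymerase alpha start each strand, polymerases epsilon and delta extend it, and the clamp PCNA, loaded by replication factor C, holds the polymerases on the template. Transcription of many of these genes is driven by E2F factors, which are released when cyclin-dependent kinases inactivate the retinoblastoma protein. Resident cardiac macrophages can renew by local division, while monocytes enter the injured heart from the blood.

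Promoters were read from RefSeq (GRCm38.p6) for 36 of the 44 genes, as the 250 bases before each start, on the strand of the gene. Letters of an E2F site (TTTCCCGC, TTTGGCGC, TTTCGCGC or TTTGCCGC, on either strand) stood in these 250 bases in 9 of the 36 genes (25%). The same search found them in 583 of 27025 genes with a promoter (2.16%). The 9 genes were Orc1, Cdc6, Mcm5, Mcm6, Mcm7, Gins3, Pola1, Rfc3 and Uhrf1. The CCAAT box (CCAAT, either strand) was in 24 of the 36 (66.7%, against 37.5% of all genes) and the CHR letters (TTTGAA or TTCGAA, either strand) in 8 (22.2%, against 19.6%); the 3 kinds of letters were searched independently and matches may overlap. Such a match describes letters and does not show a bound site. Mcm4, Gins1, Gins2, Gins4, Prim2, Pole, Rfc2 and Ccne2 had no entry.

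6 promoters with E2F letters are shown because their genes all fell at day 3, as described below, and cover licensing, the helicase, primer synthesis and methylation. Capitals mark the E2F letters, and overlapping matches on the 2 strands form 1 longer capital run in Mcm5 and Mcm6. They lie at chr8:75109259-75109508 (Mcm5, + strand), chr1:128359706-128359955 (Mcm6, - strand), chr5:138171884-138172133 (Mcm7, - strand), chr11:98907901-98908150 (Cdc6, + strand), chrX:93632156-93632405 (Pola1, - strand) and chr17:56304063-56304312 (Uhrf1, + strand).
Mcm5: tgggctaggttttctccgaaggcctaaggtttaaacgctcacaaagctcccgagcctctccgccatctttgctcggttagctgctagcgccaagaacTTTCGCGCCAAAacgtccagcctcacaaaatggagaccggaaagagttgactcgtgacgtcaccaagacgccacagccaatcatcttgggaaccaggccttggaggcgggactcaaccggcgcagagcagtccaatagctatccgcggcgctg
Mcm6: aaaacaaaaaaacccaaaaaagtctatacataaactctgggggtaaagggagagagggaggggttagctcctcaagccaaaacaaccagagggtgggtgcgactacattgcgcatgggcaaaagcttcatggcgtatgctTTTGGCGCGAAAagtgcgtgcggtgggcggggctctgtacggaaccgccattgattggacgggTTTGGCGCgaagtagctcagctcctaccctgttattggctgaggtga
Mcm7: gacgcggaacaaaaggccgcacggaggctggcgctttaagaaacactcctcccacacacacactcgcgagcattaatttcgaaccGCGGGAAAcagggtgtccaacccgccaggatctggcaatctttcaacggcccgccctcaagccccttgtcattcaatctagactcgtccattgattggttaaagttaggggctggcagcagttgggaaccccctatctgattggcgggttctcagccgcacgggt
Cdc6: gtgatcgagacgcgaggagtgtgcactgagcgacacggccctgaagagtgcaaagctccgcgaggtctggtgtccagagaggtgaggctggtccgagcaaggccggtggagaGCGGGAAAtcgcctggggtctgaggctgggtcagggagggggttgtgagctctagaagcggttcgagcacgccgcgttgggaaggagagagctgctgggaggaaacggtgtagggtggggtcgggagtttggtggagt
Pola1: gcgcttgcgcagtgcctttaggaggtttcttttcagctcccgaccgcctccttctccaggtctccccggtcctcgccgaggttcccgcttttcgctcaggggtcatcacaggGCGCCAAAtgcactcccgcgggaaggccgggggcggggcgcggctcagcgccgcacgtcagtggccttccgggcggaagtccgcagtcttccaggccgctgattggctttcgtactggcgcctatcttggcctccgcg
Uhrf1: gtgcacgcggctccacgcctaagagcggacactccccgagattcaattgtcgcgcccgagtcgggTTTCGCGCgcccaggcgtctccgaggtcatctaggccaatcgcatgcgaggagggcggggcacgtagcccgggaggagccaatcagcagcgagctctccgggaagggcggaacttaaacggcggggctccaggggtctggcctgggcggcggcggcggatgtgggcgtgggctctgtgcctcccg
The Mcm6 stretch holds 3 matches, with first bases 110, 106 and 47 bases before the start, and the Mcm5 stretch 2, at 153 and 149. Those of Mcm7, Cdc6, Pola1 and Uhrf1 hold 1 each, at 165, 138, 138 and 185. Mcm7 and Uhrf1 each have another RefSeq start whose 250 bases hold none of the letters. Gins3, which also fell at day 3, and Orc1 and Rfc3, which were not called, hold E2F letters but are not shown. Mcm2, Mcm3, Lig1, Prim1 and Rrm1 fell at day 3 and hold none of the letters in these 250 bases. The same holds for Orc6, Cdc45, Pold1, Pold2, Rfc4, Rpa2, Rpa3, Rrm2 and Tyms. Gins4, Prim2 and Pole also fell and had no entry. Whether the letters go with the fall was not tested.

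Levels are given as signal, the deposited normalised read count. Depth ran from 5828904 to 13199576 reads per library, and 3 reads correspond to a signal of 0.190 to 0.543. Between 2 and 2419 reads stood behind a value of these genes, none was at 0, and 7 genes (Orc1, Cdc6, Cdc45, Gins3, Pold1, Pole and Ccne1) fell under 10 reads in at least 1 library. The day 30 libraries were unusually alike, with a median chi-square per gene between pairs of 0.679 to 0.869, where the other groups had 1.49 to 8.65. Day 7 replicate 2 stood apart from the other day 7 libraries (8.27 and 8.65). Strand-specific counting is not given in the sources used here, so values of Fen1 (84.2% of exon bases overlapped by Tmem258 and Gm10143 on the other strand), Gins2 (67.3%, Gse1) and Orc2 (29.8%, Nif3l1) are uncertain.

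All 9 measured macrophage and monocyte markers were present, with a summed signal of 7662 to 19480 per library. The 6 resident macrophage markers (Lyve1, Timd4, Folr2, Cd163, Mrc1, Cbr2) summed to 3253 to 4238 at day 0, 176 to 370 at day 3, 669 to 1265 at day 7 and 2794 to 2835 at day 30. The 6 measured Ly6c-high monocyte markers summed to 228 to 526, 3850 to 5860, 950 to 1659 and 668 to 675 on the same days. Both lists differed with the gate and also between days sorted through the Ly6c-low gate: at day 7 all 6 resident markers were lower than at day 0 (median log2 change -2.56) and 2 of the 6 Ly6c-high markers higher, and at day 30 all 6 resident markers were higher than at day 7. Their part in the results below was not tested. In bulk RNA of this kind, fewer cells in S phase and less RNA of a gene per cell cannot be told apart.

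Per kilobase of exon, the mean signal over the 12 libraries was highest for Pcna (57.4), followed by Gins4 (12.9), Rpa3 (8.32), Mcm6 (6.91) and Mcm3 (6.86), and lowest for Ccne1 (0.434) and Mcm10 (0.441). A processed pseudogene, Pcna-ps2, is listed separately, so reads of Pcna may be shared with it. Across the groups, 34 of the 44 genes had their lowest mean at day 3, and 22 had their highest at day 7, 10 at day 0, 9 at day 30 and 3 at day 3. The mean log2(signal + 1) over the 44 genes was 3.46 to 3.55 in the day 0 libraries, 2.74 to 2.89 at day 3, 3.56 to 3.77 at day 7 and 3.38 to 3.43 at day 30, while that over all genes tested lay between 3.90 and 3.94 in every library. The heat map of the 44 genes shows this drop at day 3 and the rows that do not share it. A test over the 4 groups called 29 of the 44 genes, a share near that of all genes (63.9%).

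**Figure D1:**
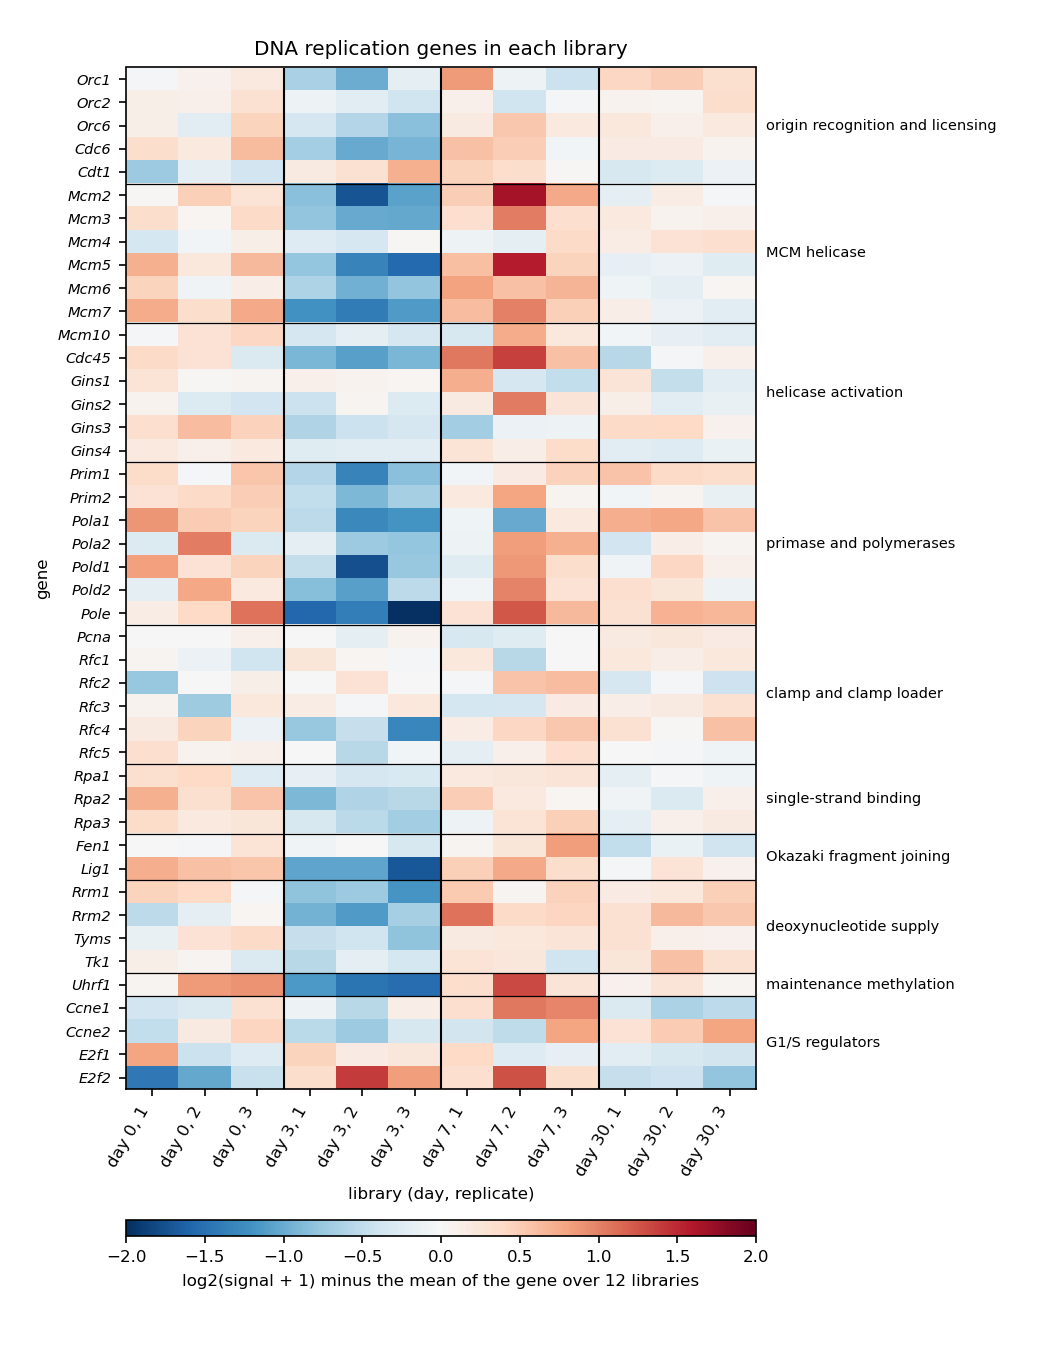
Heat map of the 44 DNA replication genes (rows, by role) in the 12 libraries (columns, by day and replicate). Colour is log2(signal + 1) minus the mean of the gene over all libraries; the day 3 columns are mostly blue, with Cdt1 and E2f2 as red rows there, and 34 genes have their lowest group mean at day 3.

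Ly6c-high cells of day 3 had lower levels of most of the replication machinery than Ly6c-low cells of the uninjured heart. Of the 44 genes, 24 fell and 2 rose, where 22.1% of the 12879 genes tested fell and 22.1% rose (limma on log2(signal + 1), Benjamini-Hochberg adjusted p under 0.05 over all genes). The day 3 libraries lay under all day 0 libraries in 28 of the 44 genes and above them in 2, where 27.5% and 27.9% of all genes tested did so. The median log2 change of the 44 was -0.72, beside -0.02 over all genes tested. The fall covered 5 of 6 MCM genes, 6 of 7 primase and polymerase genes, 3 of 4 genes of deoxynucleotide supply, 3 of 6 of helicase activation, 2 of 3 of single-strand binding, 2 of 5 of licensing, Lig1 and Uhrf1, but 1 of 6 clamp and loader genes and none of the 4 G1/S regulators.

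Among the licensing factors, Cdc6, the ATPase that brings the MCM ring to origins, had a signal of 4.16 ± 0.825 (SD, n = 3) at day 0 and 1.15 ± 0.258 at day 3. Its log2 change was -1.26 ± 0.25 (SE, n = 3 against 3, adjusted p = 0.000703). Orc6, a subunit of the origin recognition complex, fell by 0.71 ± 0.23 on the log2 scale (adjusted p = 0.0217). Its call ended without day 0 replicate 3, day 3 replicate 2 or day 3 replicate 3 (adjusted p = 0.101, 0.0523 and 0.0912). Orc1 (-0.69 ± 0.32, adjusted p = 0.0962) and Orc2 (-0.41 ± 0.19, adjusted p = 0.0943) did not pass the test. In the day 0 libraries Orc2 read 13.2, 13.1 and 15.2, at day 3 it read 11.3, 10.3 and 9.0, at day 7 13.2, 9.02 and 11.98, and at day 30 12.9, 12.7 and 15.8. Its day 3 values all lay under those of day 0.

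Cdt1, the partner of Cdc6 in loading the MCM ring, went the other way. Its signal was 4.36, 6.71 and 5.80 at day 0, 9.01, 9.92 and 13.5 at day 3, 11.1, 10.3 and 8.03 at day 7, and 6.08, 6.36 and 7.16 at day 30. Every library of days 3 and 7 was above every library of days 0 and 30. The rise from day 0 to day 3 was 0.83 ± 0.22 (adjusted p = 0.00632), and it passed in all 25 alternatives counted for this comparison (0.57 to 0.96). These leave out averaging of the day 30 libraries. Gmnn, which encodes the CDT1 inhibitor geminin and is not among the 44 genes, had a mean of 4.36 at day 0 and 5.17 at day 3 and did not pass (0.17 ± 0.25, adjusted p = 0.611).

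The 6 subunits of the MCM ring, which sit in it in equal number, did not move alike. Mcm7 (chromosome 5, 138164583 to 138172422, GRCm38) had a signal of 19.7, 14.8 and 19.7 at day 0, 4.31, 3.66 and 4.63 at day 3, 17.9, 23.8 and 16.1 at day 7, and 12.6, 10.3 and 9.57 at day 30. The day 3 values lay under every other library, and the day 30 values lay between those of day 3 and those of days 0 and 7. Its change at day 3 was -1.87 ± 0.20 (adjusted p = 2.75e-06).

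Mcm5 (chromosome 8, 75109569 to 75128439) read 19.8, 13.7 and 18.8 at day 0, 6.42, 4.01 and 3.31 at day 3, 18.2, 36.5 and 16.2 at day 7, and 10.4, 10.7 and 9.70 at day 30. Mcm2 read 9.90, 13.9 and 11.95, then 4.98, 2.24 and 4.10, then 14.1, 33.1 and 17.1, and then 8.35, 10.9 and 9.38 on those days. Day 3 was again the lowest group in both, without overlap, and day 7 replicate 2 the highest library. Mcm5 changed by -1.75 ± 0.28 (adjusted p = 0.000124) and Mcm2 by -1.47 ± 0.29 (adjusted p = 0.000833) at day 3.

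Mcm3 read 30.4, 24.3 and 31.3 at day 0, 13.2, 11.2 and 11.1 at day 3, 30.1, 49.4 and 30.1 at day 7, and 27.1, 24.9 and 25.6 at day 30. Mcm6 read 41.1, 28.6 and 33.0, then 19.3, 14.99 and 16.9, then 53.4, 45.3 and 48.8, and then 28.3, 26.4 and 30.9. For Mcm6 the day 7 libraries were all above those of the other days. Mcm3 fell by 1.2 ± 0.19 and Mcm6 by 0.95 ± 0.17 at day 3 on the log2 scale (adjusted p = 0.00013 and 0.000252).

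Mcm4 (chromosome 16, 15623897 to 15637400) did not share the fall. Its signal was 17.4, 21.5 and 24.3 at day 0, 18.5, 17.6 and 22.8 at day 3, 20.7, 19.7 and 29.4 at day 7, and 24.8, 27.4 and 28.7 at day 30, so the groups of days 0, 3 and 7 overlapped. The day 3 change was -0.09 ± 0.19 (95% interval -0.50 to 0.31, adjusted p = 0.713). Of the summed signal per kilobase of the 6 subunits, Mcm4 made up 14.9%, 21.9% and 20.4% at day 0, 32.0%, 37.0% and 41.2% at day 3, 16.1%, 11.5% and 22.2% at day 7, and 25.7%, 28.8% and 29.2% at day 30. Its share was larger in each day 3 library than in any other; this ratio was chosen after the values were seen and was not tested.

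**Figure D2:**
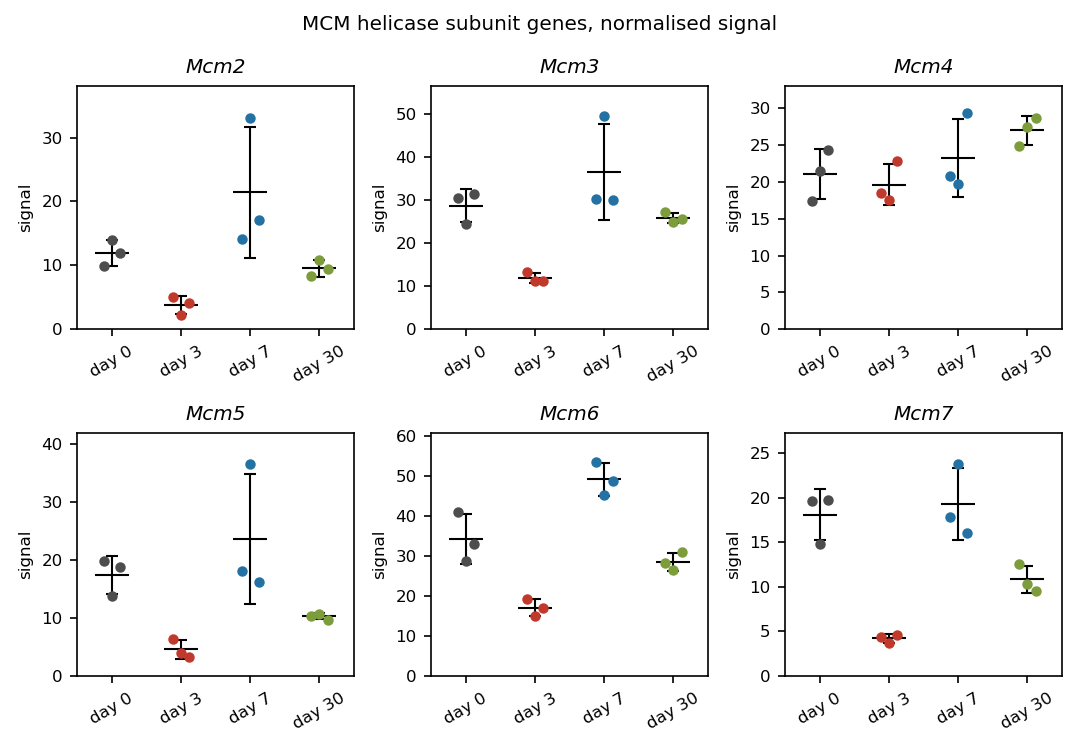
Signal of the 6 MCM genes by day (points, libraries; bars, mean ± SD, n = 3; each y axis starts at 0 and has its own scale). 5 of the 6 have their day 3 libraries under all others, while the day 3 libraries of Mcm4, between 17.6 and 22.8, overlap those of day 0.

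Of the factors that turn the loaded ring into a helicase, Cdc45 had a signal of 3.35 ± 1.03 at day 0 and 0.980 ± 0.133 at day 3, a change of -1.11 ± 0.28 (adjusted p = 0.00526). Gins3 changed by -0.93 ± 0.25 (adjusted p = 0.00779). Gins4, the most abundant GINS subunit per kilobase, read 19.9, 18.6 and 19.7 at day 0, 14.4, 14.8 and 14.6 at day 3, 21.04, 18.96 and 22.4 at day 7, and 14.7, 14.3 and 15.5 at day 30. Days 3 and 30 thus lay together under days 0 and 7. The day 3 change of Gins4 was small (-0.39 ± 0.15, adjusted p = 0.0477), and its call ended without any 1 of the 6 libraries compared or of the day 30 libraries (adjusted p = 0.0719 to 0.106). Gins2 read 14.4, 11.2 and 10.3 at day 0, 9.87, 14.3 and 11.1 at day 3, 15.6, 29.4 and 16.7 at day 7, and 14.97, 11.6 and 12.3 at day 30, with overlap between days 0, 3 and 30. Gins1 (-0.04 ± 0.30), Gins2 (-0.03 ± 0.24) and Mcm10 (-0.51 ± 0.27) did not pass at day 3.

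In the primase and polymerase group, Pole, the catalytic subunit of the leading-strand polymerase, had the largest change of the 44 genes. It read 7.00, 8.60 and 14.3 at day 0, 1.44, 1.77 and 0.265 at day 3, 7.87, 16.2 and 10.4 at day 7, and 7.96, 10.7 and 10.5 at day 30. The lowest of these values rests on 2 reads. Pole changed by -2.37 ± 0.33 (adjusted p = 3.38e-05), and over the alternatives by -3.24 to -1.26, always past the threshold.

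Pola1, the catalytic subunit of the polymerase that extends RNA primers, read 43.6, 33.3 and 32.1 at day 0, 15.9, 8.86 and 9.53 at day 3, 21.8, 10.98 and 26.7 at day 7, and 38.9, 40.4 and 35.0 at day 30. Its change at day 3 was -1.62 ± 0.28 (adjusted p = 0.000207). Both primase subunits fell, Prim1 by 1.21 ± 0.25 and Prim2 by 1.08 ± 0.22, as did the polymerase delta subunits Pold1 (1.52 ± 0.35) and Pold2 (1.08 ± 0.31). The Pold2 call ended without day 0 replicate 2 (adjusted p = 0.0569). Pola2, the accessory subunit of polymerase alpha, read 6.07, 16.4 and 5.98 at day 0, 6.42, 4.13 and 3.97 at day 3, 6.96, 14.2 and 13.0 at day 7, and 5.54, 8.34 and 7.86 at day 30. Its groups overlapped at days 0 and 3, and it did not pass (-0.73 ± 0.34, adjusted p = 0.101).

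Of the clamp and its loader, 1 gene of 6 fell. Pcna read 137.5, 137.3 and 147.4 at day 0, 135.5, 120.1 and 144.4 at day 3, 109.8, 115.7 and 136.6 at day 7, and 155.7, 159.6 and 153.3 at day 30. Days 0 and 3 overlapped, and the change was -0.08 ± 0.13 (95% interval -0.36 to 0.20, adjusted p = 0.641). Rfc1, the large loader subunit, read 37.2, 33.2 and 27.0 at day 0, 42.5, 37.0 and 35.2 at day 3, 41.8, 24.3 and 36.4 at day 7, and 41.9, 39.4 and 41.6 at day 30. Neither it (0.24 ± 0.19) nor Rfc2 (0.29 ± 0.25), Rfc3 (0.26 ± 0.25) or Rfc5 (-0.37 ± 0.20) passed, whereas Rfc4 fell by 1.0 ± 0.26 (adjusted p = 0.00581).

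Of the single-strand binding protein RPA, the middle subunit gene Rpa2 read 15.6, 11.5 and 13.9 at day 0, 4.41, 5.67 and 5.82 at day 3, 13.2, 10.5 and 9.35 at day 7, and 8.58, 7.21 and 9.83 at day 30. It fell by 1.22 ± 0.21 (adjusted p = 0.000211) on the log2 scale, and Rpa3 by 0.79 ± 0.21 (adjusted p = 0.00607). Rpa1 read 20.3, 21.6 and 13.2 at day 0, 14.2, 12.5 and 12.8 at day 3, 18.6, 18.96 and 19.4 at day 7, and 14.0, 15.6 and 15.2 at day 30. It did not pass at day 3 (-0.42 ± 0.19, adjusted p = 0.0777). Lig1, the ligase that seals Okazaki fragments, read 27.1, 24.6 and 24.1 at day 0, 7.19, 7.20 and 4.24 at day 3, 22.7, 27.9 and 20.6 at day 7, and 15.8, 19.7 and 16.99 at day 30. The 4 groups formed 3 steps, with day 3 lowest, day 30 next, and days 0 and 7 overlapping at the top. Its change at day 3 was -1.89 ± 0.20 (adjusted p = 2.14e-06), the smallest adjusted p among the 44. The flap nuclease gene Fen1, whose counts are uncertain, read 4.88, 4.82 and 6.16, then 4.60, 4.96 and 3.71, then 5.15, 6.01 and 9.49, and then 3.20, 4.38 and 3.49, and did not pass at day 3 (-0.21 ± 0.24).

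For deoxynucleotide supply, the large ribonucleotide reductase subunit gene Rrm1 read 29.4, 28.6 and 21.2 at day 0, 11.9, 12.5 and 8.87 at day 3, 31.2, 22.2 and 29.8 at day 7, and 24.3, 25.02 and 30.3 at day 30. Only the day 3 libraries stood apart, with a change of -1.18 ± 0.20 (adjusted p = 0.000166). Tyms, thymidylate synthase, fell by 0.73 ± 0.19 (adjusted p = 0.00669) and Rrm2, the small reductase subunit, by 0.70 ± 0.25 (adjusted p = 0.031). The Rrm2 call ended without day 0 replicate 2 or 3 or day 3 replicate 1 or 2 (adjusted p = 0.074, 0.119, 0.0653 and 0.112). The salvage enzyme thymidine kinase, Tk1, read 13.7, 13.2 and 10.1 at day 0, 8.24, 10.9 and 9.66 at day 3, 15.4, 15.03 and 9.35 at day 7, and 15.1, 19.5 and 15.8 at day 30, and did not pass (-0.33 ± 0.22).

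Uhrf1, which binds hemimethylated CpG behind the fork and recruits the methyltransferase DNMT1, read 8.32, 15.2 and 15.8 at day 0, 3.07, 2.24 and 2.12 at day 3, 10.5, 21.4 and 9.79 at day 7, and 8.5, 9.75 and 8.30 at day 30. It fell by 1.98 ± 0.29 (adjusted p = 5.26e-05) at day 3. Dnmt1 itself had a mean of 50.4 at day 0 and 63.0 at day 3 and did not pass (0.32 ± 0.16, adjusted p = 0.111).

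E2f2, an activator-class E2F factor (chromosome 4, 136172394 to 136196057), moved against most genes of the fork at day 3. It read 3.70, 5.24 and 8.33 at day 0, 15.2, 32.5 and 21.6 at day 3, 14.99, 29.5 and 15.2 at day 7, and 8.19, 8.48 and 6.34 at day 30. All libraries of days 3 and 7 were above all libraries of days 0 and 30. The change at day 3 was 1.83 ± 0.32 (adjusted p = 0.000234), and between 1.36 and 2.09 over the alternatives. E2f1 read 34.5, 14.3 and 16.1 at day 0, 26.8, 22.1 and 23.03 at day 3, 26.04, 16.2 and 17.4 at day 7, and 16.5, 15.4 and 14.8 at day 30. Day 0 replicate 1 was its highest library, and it did not pass (0.25 ± 0.27).

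The cyclin E genes, which activate CDK2 at the start of S phase, were scarce. Ccne1 read 0.528, 0.629 and 1.45 at day 0, 0.862, 0.354 and 1.19 at day 3, 1.51, 3.12 and 2.92 at day 7, and 0.624, 0.283 and 0.380 at day 30, with all day 7 libraries above the rest. Ccne2 read 2.11, 3.98 and 4.89, then 2.01, 1.65 and 2.52, then 2.42, 2.08 and 6.57, and then 4.37, 5.23 and 6.59. Neither passed at day 3 (-0.05 ± 0.31 and -0.57 ± 0.34).

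**Figure D3:**
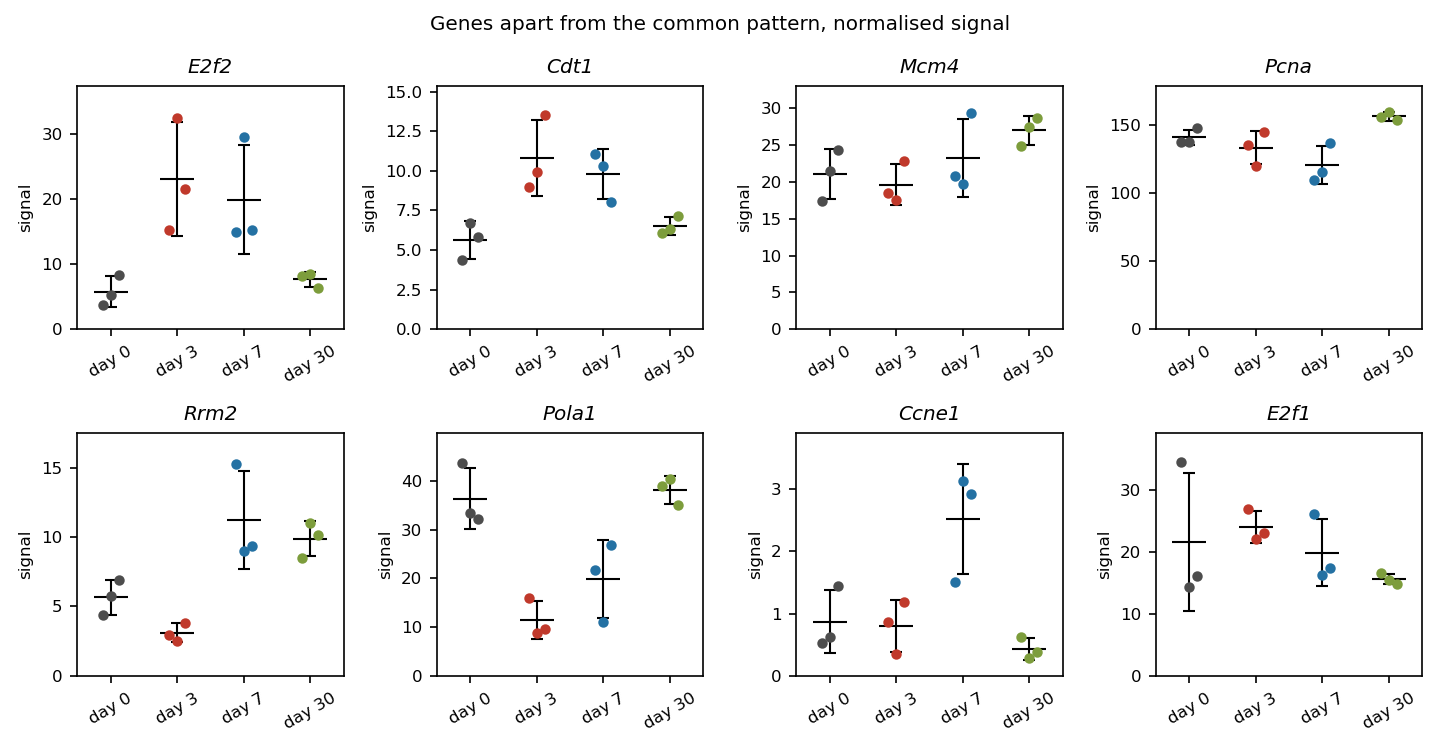
Signal of 8 genes by day (points, libraries; bars, mean ± SD, n = 3; each y axis starts at 0 and has its own scale). The title sets all 8 apart, but Rrm2 and Pola1 had their lowest mean at day 3, like most of the 44 genes. E2f2 and Cdt1 are high at days 3 and 7, Mcm4 and Pcna have no drop at day 3, and the day 7 libraries of Ccne1, at 1.51 to 3.12, are above all others. Ccne1 passed the minimum mean signal through day 7.

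Of the 26 calls between days 3 and 0, 21 passed in every alternative counted here that tested the gene. Averaging of the day 30 libraries is given apart below. The alternatives included the edgeR and DESeq2 tests on recovered reads. Among the 21, Cdc45, Cdc6 and Pold1 entered 24 of the 25 alternatives, as their mean signal was under 5. The other calls were Orc6, Gins3, Gins4, Pold2 and Rrm2, each lost in at least 1 alternative. With the day 30 libraries averaged as 1 sample, which lowers the degrees of freedom, 23 of the 26 were kept. Other cell types also differed in these libraries. The 10 T and NK cell markers summed to 27.2, 191 and 133 in the day 0 libraries and 3.07 to 9.68 at day 3, with no marker at 0 in all libraries of either day. The 6 mast cell markers summed to 22.6 to 40.9 at day 0 and 0.575 to 0.794 at day 3, where 5 of them (Cpa3, Cma1, Mcpt4, Tpsb2 and Fcer1a) were at 0 in all 3 libraries. The 10 cardiomyocyte markers summed to 65.6 to 183 at day 0 and 7.44 to 11.3 at day 3, where Myl3 was at 0 in all libraries. Going the other way, the 10 fibroblast markers summed to 46.5 to 127 and then 299 to 404, with 5 called higher and 2 lower. Of these, Lox was at 0 in all day 0 libraries. The 4 measured neutrophil markers summed to 50.0 to 91.5 and then 176 to 218. Most of that sum was Csf3r (47.8 to 54.7, then 149 to 185). Of the 3 neutrophil markers tested 1 was called higher, and S100a8 and S100a9 overlapped between the days. The part of these cells in the fall of the replication genes was not tested.

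Genes around the fork that were not among the 44 were read from 5 lists. At day 3, 22.1% of all genes tested fell and 22.1% rose. In the list of 35 other fork and licensing genes, 12 fell and 3 rose at day 3. Ticrr, which encodes treslin, changed by -2.13 ± 0.25 and Dtl, the receptor of the ligase that degrades CDT1 in S phase, by -1.95 ± 0.25. Timeless, of the fork protection complex, went up by 1.75 ± 0.26 and the nuclease Dna2 by 1.72 ± 0.18, while Tipin, the partner of Timeless, changed by -1.48 ± 0.31. Of 12 genes of replication-coupled chromatin, 5 fell and none rose, with the histone chaperone Asf1b at -1.91 ± 0.27.

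Nucleotide metabolism was split. Of 16 other genes of deoxynucleotide metabolism, 8 rose and 6 fell, where 22.1% of all genes tested rose and 22.1% fell. Cmpk2, a mitochondrial nucleotide kinase, rose by 4.58 ± 0.21, Pnp, a purine phosphorylase, by 2.17 ± 0.23 and Dck, deoxycytidine kinase, by 2.03 ± 0.18, and the transporter gene Slc29a1 changed by -2.65 ± 0.19. Samhd1, which degrades deoxynucleotides, read 338 to 348 in the day 0 libraries and 924, 1477 and 1427 at day 3, a rise of 1.86 ± 0.18 (adjusted p = 7.3e-07). The groups did not overlap.

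Of 29 other G1/S control genes, 6 rose and 10 fell at day 3, where 22.1% of all genes tested rose and 22.1% fell. The share that rose was thus near that of all genes. Cdkn1a, the p21 inhibitor of cyclin-dependent kinases, read 157.9, 81.6 and 87.1 at day 0 and 341, 456 and 431 at day 3, a rise of 1.96 ± 0.23 (adjusted p = 5.8e-06). Ccna2, the S phase cyclin, changed by -2.16 ± 0.21, Cdkn1c by -2.48 ± 0.29 and the E2F partner Tfdp2 by -2.19 ± 0.28. Cdkn1b (0.28 ± 0.17), Cdk2 (-0.42 ± 0.22) and Rb1 (0.04 ± 0.15) did not pass. Of 20 genes of mitosis and division, 16 fell and none rose, with a median of -1.51. Top2a, the topoisomerase that separates replicated chromosomes, went from 67.7 to 74.8 in the day 0 libraries to 11.3 to 12.3 at day 3 (-2.48 ± 0.17, adjusted p = 1.65e-08), and Mki67, the proliferation marker Ki-67, from 103 to 158 down to 35.0 to 41.2 (-1.79 ± 0.26).

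**Figure D4:**
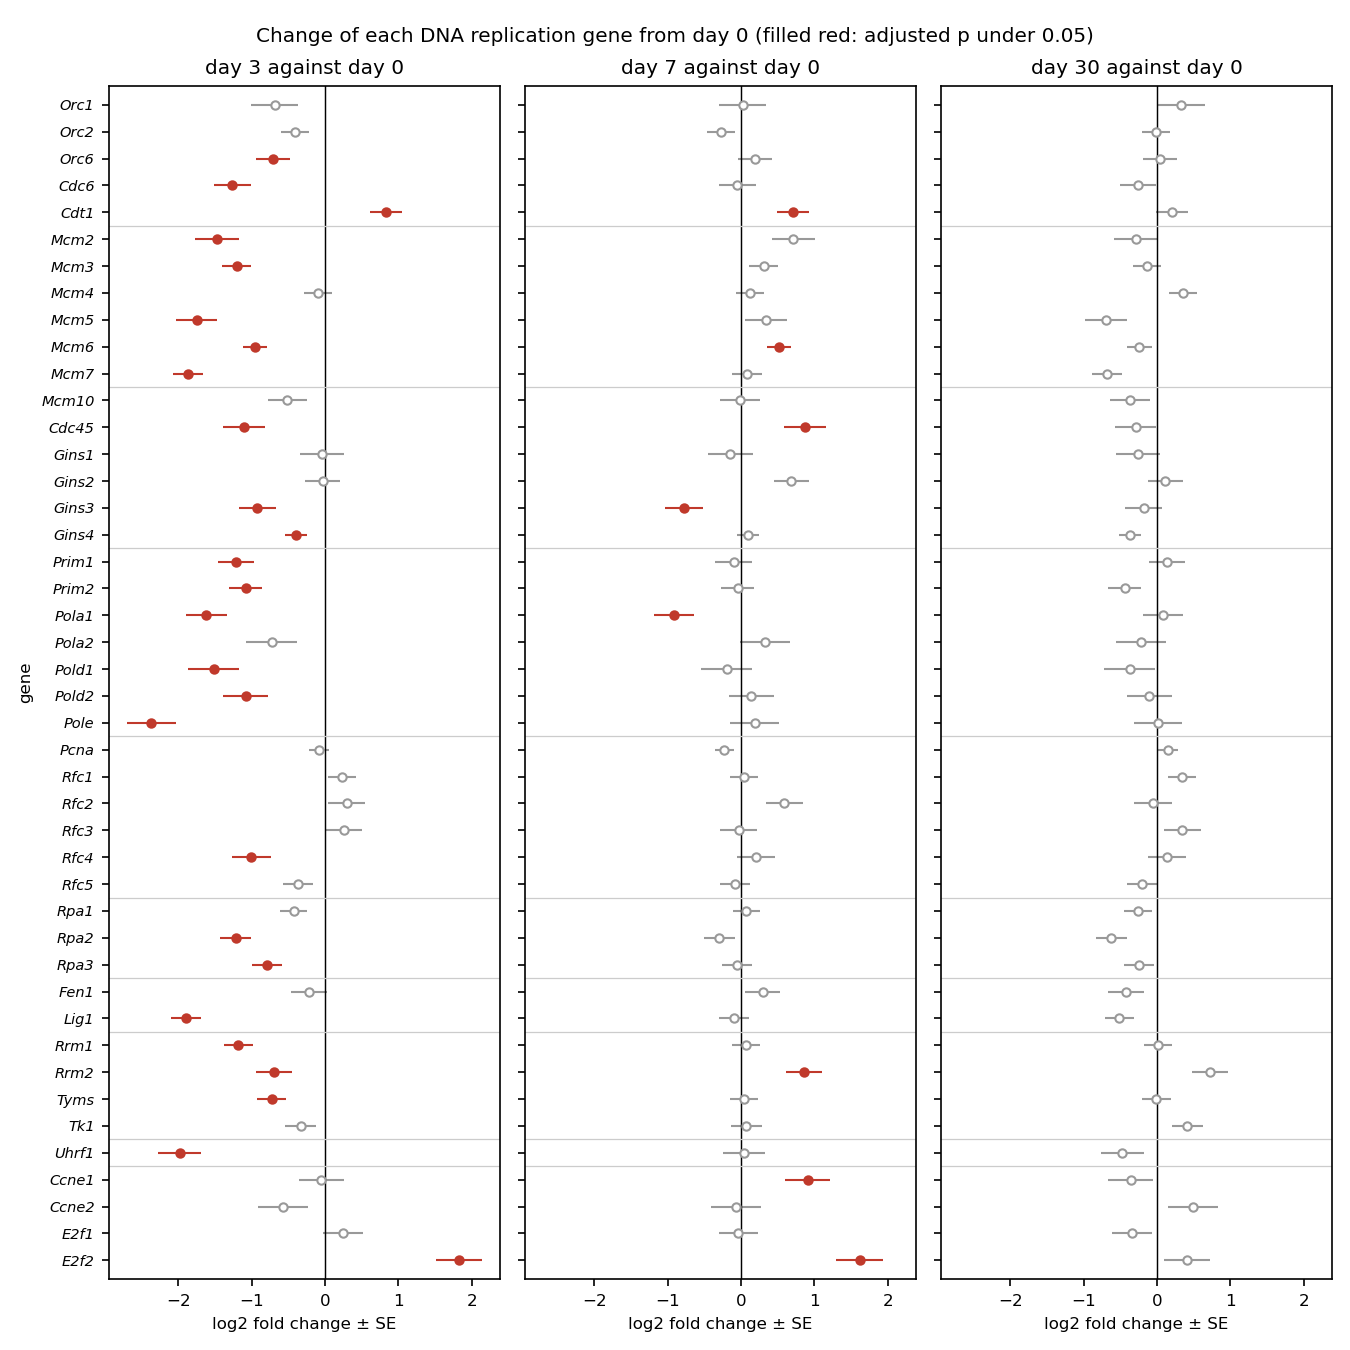
Log2 fold change of each of the 44 genes from day 0 (x axis; points, estimate; bars, SE of the limma fit, n = 3 against 3) for days 3, 7 and 30, ordered by role. Filled red points passed the test: 26 at day 3, 8 at day 7 and none at day 30.

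The day 7 and day 0 cells shared the Ly6c-low gate. At day 7, 6 of the 44 were higher (E2f2, Ccne1, Cdc45, Rrm2, Cdt1 and Mcm6) and 2 lower (Pola1 and Gins3), where 11.4% of all genes tested were higher and 10.2% lower. The share of the 44 that was higher was near that of all genes, and the share that was lower was under it. Ccne1 had passed the minimum mean signal through day 7, so its calls in comparisons with day 7 are not independent of that filter. The median of the 44 was 0.07, beside -0.02 over all genes. E2f2 had the largest change, 1.62 ± 0.32 (adjusted p = 0.00218), and it was the 1 call that passed in all 25 alternatives counted for this comparison (1.08 to 1.88). The day 7 libraries lay above all day 0 libraries in 8 of the 44 genes and under them in 3, where 16.5% and 15.7% of all genes tested did so.

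The other 7 calls were close to the threshold. Ccne1 changed by 0.91 ± 0.31 (adjusted p = 0.0462), Cdc45 by 0.87 ± 0.28 (adjusted p = 0.0398), Rrm2 by 0.85 ± 0.25 (adjusted p = 0.0229), Cdt1 by 0.71 ± 0.22 (adjusted p = 0.032) and Mcm6 by 0.52 ± 0.17 (adjusted p = 0.0354). Pola1 changed by -0.91 ± 0.28 (adjusted p = 0.0282) and Gins3 by -0.78 ± 0.25 (adjusted p = 0.0396). A fit of the compared groups alone left 1 higher call and no lower call, and with the day 30 libraries averaged as 1 sample 1 of the 8 calls was kept. The higher count was 2 without day 0 replicate 2 or day 30 replicate 3 and 3 without day 0 replicate 3, day 7 replicate 2, day 30 replicate 1 or day 30 replicate 2. The lower count was 0 without any 1 of the day 0 libraries, and 1 without day 3 replicate 2 or 3, day 7 replicate 1 or 2, or any 1 of the day 30 libraries.

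By gene, the Cdc45 call ended without day 0 replicate 2 or 3 or day 7 replicate 1 or 2 (adjusted p = 0.0619, 0.15, 0.0708 and 0.131), and that of Mcm6 without day 0 replicate 2 or 3 or day 7 replicate 1 or 3 (0.142, 0.0909, 0.0779 and 0.053). The Ccne1 call ended without day 0 replicate 1 or 2 or day 7 replicate 2 or 3 (adjusted p = 0.124, 0.123, 0.128 and 0.0995), and that of Cdt1 without day 0 replicate 1 or 3 or day 7 replicate 1 or 2 (0.111, 0.0642, 0.0739 and 0.0645). For Rrm2 it ended without day 0 replicate 1 or 2 or day 7 replicate 1 (adjusted p = 0.08, 0.0518 and 0.0746). Pola1 lost its call without any day 0 library or day 7 replicate 2 (adjusted p = 0.0506 to 0.0985), and Gins3 without any day 0 library or day 7 replicate 1 (0.0544 to 0.114). After trends on GC content and length were removed, Cdt1 was at 0.36 (adjusted p = 0.274).

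Day 7 replicate 2 carried much of the spread. It had the highest Mcm2, Mcm3, Mcm5, Mcm7, Gins2, Pole and Uhrf1 of all 12 libraries, and a summed signal of Mcm2 to Mcm7 of 207.7 against 154 and 158 in the other day 7 libraries. In the same library Mki67 was 65.3, against 173 and 123 in the other day 7 libraries, and Top2a 44.6 against 72.2 and 67.8. Its 10 fibroblast markers (Col1a1, Col1a2, Col3a1 and others, none at 0 in all day 7 libraries) summed to 2266 against 813 and 590, beside 46.5 to 127 at day 0, where Lox was at 0 in all libraries. The part of fibroblast RNA in these values was not tested. Without that library and day 0 replicate 1, the counts were 3 higher and 1 lower.

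In the neighbouring lists, 2 of 35 other fork and licensing genes were higher at day 7 than at day 0 and 2 lower, and 3 of 29 G1/S control genes were higher and 2 lower. These shares were near or under those of all genes tested (11.4% higher and 10.2% lower). Tfdp1, the dimerisation partner of E2F factors, rose by 1.06 ± 0.18 (adjusted p = 0.000821), and Chaf1b, of the chromatin assembly factor that works behind the fork, by 1.03 ± 0.30 (adjusted p = 0.0265). The cyclin D gene Ccnd2 changed by -1.01 ± 0.15 and the inhibitor gene Cdkn1c by -1.47 ± 0.29. Pold4, the small subunit of polymerase delta, rose by 0.94 ± 0.22. Slbp, which binds the end of replication-dependent histone mRNA, changed by -0.88 ± 0.17, and Rrm2b, the reductase subunit used outside S phase, by -1.12 ± 0.31. Of 20 mitosis genes only Ccnb2 passed (0.67 ± 0.21). Cdkn1a (0.40 ± 0.23), Cdkn1b (-0.47 ± 0.17), Cdk2 (0.23 ± 0.22), Rb1 (-0.43 ± 0.15), Samhd1 (-0.21 ± 0.18), Dnmt1 (0.35 ± 0.16), Mki67 (-0.25 ± 0.26) and Top2a (-0.22 ± 0.17) did not.

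Day 7 was also set against day 3, a comparison that joins time and gate and shares the day 3 libraries with the one above. Of the 44 genes, 27 were higher at day 7 and 0 lower, where 23.3% of all genes tested were higher and 23.5% lower; 28 and 0 had an unadjusted limma p under 0.05, and edgeR and DESeq2 called 0 lower as well. The day 7 libraries lay above all day 3 libraries in 27 of the 44 genes and under them in 0, where 25.6% and 25.3% of all genes tested did so. The median change was 0.75, beside 0.04 over all genes. All 7 primase and polymerase genes, all 3 RPA genes and 5 of 6 MCM genes were called. Pole rose by 2.56 ± 0.33, Mcm2 by 2.18 ± 0.29, Mcm5 by 2.09 ± 0.28, Uhrf1 by 2.02 ± 0.29, Cdc45 by 1.98 ± 0.28, Mcm7 by 1.95 ± 0.20 and Lig1 by 1.80 ± 0.20. Rrm2 rose by 1.55 ± 0.25 and Rrm1 by 1.25 ± 0.20. Mcm4 (0.22 ± 0.19), Pcna (-0.14 ± 0.13), Cdt1 (-0.12 ± 0.22), E2f1 (-0.28 ± 0.27) and E2f2 (-0.21 ± 0.32) did not pass.

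Of these 27 calls, 19 passed in all 25 alternatives run for this comparison, and 24 with the day 30 libraries averaged as 1 sample. Pola1 (0.70 ± 0.28) lost its call without day 3 replicate 2 or 3 or day 7 replicate 1 or 3 (adjusted p = 0.165, 0.142, 0.132 and 0.2), Pola2 (1.05 ± 0.34) without day 3 replicate 2 or 3 or day 7 replicate 2 or 3 (0.0668, 0.0718, 0.0719 and 0.0663) and Rpa1 (0.50 ± 0.19) without day 3 replicate 2 or 3 or day 7 replicate 1 or 3 (0.101, 0.0926, 0.0589 and 0.073). Gins2 (0.71 ± 0.24) lost it without day 3 replicate 1 or 3 or day 7 replicate 2 (0.082, 0.0644 and 0.0908, with 0.44 in the last case), and Ccne1 (0.96 ± 0.31) without day 3 replicate 2 or day 7 replicate 2 or 3 (0.0877, 0.0569 and 0.0569). Of the 20 mitosis genes 19 rose and none fell, with Kif20a at 2.41 ± 0.28 and Top2a at 2.27 ± 0.17. Among the 29 G1/S control genes 11 rose and 8 fell, with Ccna2 at 2.3 ± 0.21 and Cdkn1a at -1.55 ± 0.23. Beside these lists, 23.3% of all genes tested rose and 23.5% fell. Cmpk2 (-3.53 ± 0.21), Samhd1 (-2.07 ± 0.18), Dck (-1.97 ± 0.18) and Pnp (-1.94 ± 0.23) were lower at day 7.

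From day 7 to day 30, within the Ly6c-low gate, 9 of the 44 genes fell (Mcm2, Mcm5, Mcm6, Mcm7, Cdc45, Gins4, Fen1, Ccne1 and E2f2) and 2 rose (Pola1 and Pcna), where 19.9% of all genes tested fell and 19.7% rose. The shares of the 44 were thus near or under those of all genes. The day 30 libraries lay under all day 7 libraries in 15 of the 44 genes and above them in 3, where 27.6% and 27.7% of all genes tested did so. The summed signal of Mcm2 to Mcm7 went from 154 to 207.7 at day 7 to 111 to 114 at day 30, without overlap. Markers of other cells differed over the same interval. The 10 fibroblast markers summed to 813, 2266 and 590 at day 7 and 180 to 188 at day 30, with 7 of 10 lower, and the 8 endothelial markers to 65.9, 153.5 and 88.1 and then 38.2 to 43.1, with 3 of 8 lower. No marker of either list was at 0 in all libraries of either day, and their part in the fall was not tested. Ccne1 changed by -1.27 ± 0.31 (adjusted p = 0.00507), E2f2 by -1.21 ± 0.32 (adjusted p = 0.00782), Cdc45 by -1.16 ± 0.28 (adjusted p = 0.00535), Mcm5 by -1.04 ± 0.28 (adjusted p = 0.00959) and Mcm2 by -1.0 ± 0.29 (adjusted p = 0.0146). Mcm7 (-0.77 ± 0.20) and Mcm6 (-0.76 ± 0.17) were also past the threshold. Ccne1 is again the gene that passed the minimum mean signal through day 7. Pola1 rose by 0.99 ± 0.28 and Pcna by 0.38 ± 0.13, its day 30 libraries (153.3 to 159.6) lying above all others.

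If the closely alike day 30 libraries are averaged and counted as 1 sample, none of these 11 calls remained. The Mcm2 call ended without day 7 replicate 2 (-0.66, adjusted p = 0.0666) or day 30 replicate 1 (0.0575), that of Fen1 without day 7 replicate 3 or day 30 replicate 1 or 3 (adjusted p = 0.108, 0.105 and 0.0893), and that of Gins4 without day 7 replicate 3 or any 1 of the day 30 libraries (0.059 to 0.0921). Pcna lost its call without day 7 replicate 1 or any 1 of the day 30 libraries (adjusted p = 0.0841 to 0.102), which left 1 higher call. With trends on GC content and length removed, Pola1 was at 0.44 (adjusted p = 0.115), Fen1 at -0.34 (0.324), Gins4 at -0.17 (0.354), Pcna at 0.24 (0.129) and Mcm7 at -0.44 (0.0632), and 6 of the 11 calls were kept.

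Of the 20 mitosis genes, 2 rose (Mki67 by 0.94 ± 0.26 and Cenpf by 0.93 ± 0.23) and 1 fell (Plk1, -1.04 ± 0.28) from day 7 to day 30, beside the 19.7% and 19.9% of all genes. Their median was -0.20, with 13 of 20 below 0, and that of the 6 MCM genes -0.77; the difference between the lists was not tested. Top2a was at 0.21 ± 0.17 (adjusted p = 0.32). Mki67 read 173, 65.3 and 123 at day 7 and 218, 207 and 219.5 at day 30. Of the 29 G1/S control genes 7 rose and 3 fell: Rb1, the retinoblastoma gene, by 0.92 ± 0.15 and the inhibitor gene Cdkn1b by 0.87 ± 0.17 upward, and Tfdp1 (-0.91 ± 0.18), E2f4 (-0.84 ± 0.23) and Cdk4 (-0.82 ± 0.16) downward. Dnmt1 changed by -0.48 ± 0.16. Cdkn1a (0.38 ± 0.23), Cdk2 (-0.18 ± 0.22) and Samhd1 (0.10 ± 0.18) did not pass.

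Between day 30 and the uninjured heart, none of the 44 genes was called higher and none lower, where 3.45% and 2.73% of all genes tested were; edgeR called 0 and 0 and DESeq2 0 higher and 1 lower, and 1 higher and 5 lower had an unadjusted limma p under 0.05. The median of the 44 was -0.16, beside -0.01 over all genes. A fit of the compared groups alone called 1 higher and 5 lower. In the fit of all groups, nearest to the threshold was Mcm7, with a mean of 18.1 at day 0 and 10.8 at day 30, at -0.69 ± 0.20 (adjusted p = 0.0591), then Rpa2 at -0.62 ± 0.21 (adjusted p = 0.09) and Rrm2 at 0.72 ± 0.25 (adjusted p = 0.0973). The day 30 libraries lay under all day 0 libraries in 11 of the 44 genes and above them in 6, where 20.3% and 20.5% of all genes tested did so. Without day 7 replicate 2, which enters through the pooled spread, 1 gene was called higher and 3 lower.

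Of the other lists, mitosis and chromatin genes had no call between days 30 and 0, where 3.45% of all genes tested rose and 2.73% fell. Cdk6 rose by 0.66 ± 0.17 and Cdk4 fell by 0.62 ± 0.16, both kinases that phosphorylate the retinoblastoma protein, and Slc29a1 changed by -0.95 ± 0.19. Rnaseh2c, a subunit of the nuclease that removes RNA from DNA, changed by -1.10 ± 0.24 and Mtbp, the partner of treslin, by 0.81 ± 0.21. Cdkn1a (0.78 ± 0.23, adjusted p = 0.0574), Rb1 (0.49 ± 0.15), Cdkn1b (0.40 ± 0.17), Mki67 (0.69 ± 0.26), Cdk2 (0.05 ± 0.22), Samhd1 (-0.11 ± 0.18), Dnmt1 (-0.13 ± 0.16) and Top2a (-0.00 ± 0.17) did not pass.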

How the data were processed

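RNA-seq of 12 libraries of sorted mouse heart cells was analysed from 1 deposited table of 14460 genes. Per the submitters' processing notes, cutadapt 1.3, RSEM 1.2.20, edgeR 3.14.0 and the build GRCm38 were used; strand settings are not given in the sources used here. The table holds a linear normalised signal deposited by the authors, and deposited log2 values equal to the log2 of that signal with values under 1 set to 0. Signals were whole multiples of 1 step per library (100% whole within 0.02 reads), so reads were recovered by division; read counts cover counting error only.

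The 12879 genes whose signal averaged 1 or more were fitted as log2(signal + 1) with limma 3.58.1 (R 4.3.3; variance trend, 4 group means, all 12 libraries), two-sided, with Benjamini-Hochberg adjustment over all genes per comparison and a threshold of 0.05. Fold changes on this scale understate those of low genes. Alternatives included edgeR 4.0.16 and DESeq2 1.42.0 on recovered reads. Removal of GC and length trends was added after the data were seen. Averaging of the day 30 libraries is counted among the alternatives only where day 30 is among the groups compared. The fit was tested on simulated data. Exon overlaps and lengths came from GENCODE M21. The members, roles, lists and tests were chosen with earlier results of these data known. Per-library values are given for the MCM genes, the 2 most abundant genes of each other role, the G1/S regulators and genes called against their role, and others where they show the result. From the other lists, up to 4 genes by size of change and 8 set genes are named. Tipin, Gmnn, Cdk4 from day 7 to day 30 and Pnp between days 7 and 3 were added after their values were seen. P-values measure the spread between these libraries, which may be technical.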

Additional observations from a re-analysis of the deposited data

How the results depend on the processing

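No call changed direction under any alternative run, but small counts moved. Day 7 against day 0 gave 1 higher in a fit of the compared groups alone and 3 without the first day 0 and second day 7 libraries; lower were 1 with a pseudocount of 0.1, a mean signal of at least 5, quantile normalisation, edgeR, DESeq2, or without those 2 libraries, and 0 with the compared groups alone. Leaving out each library gave 2 to 6 higher and 0 to 2 lower. Day 30 against day 0 gave 1 higher with the compared groups alone or without those 2 libraries, and lower 1 with a mean of at least 5 or DESeq2, 5 with the compared groups alone and 2 without those libraries; leaving out each library gave 0 to 1 higher and 0 to 3 lower. Day 30 against day 7 gave 1 higher with quantile normalisation, the compared groups alone or GC and length trends removed, and 0 higher and 0 lower with day 30 averaged as 1 sample; leaving out each library gave 1 to 3 higher and 6 to 12 lower. Counts for day 3 against day 0 (20 to 28 lower), for day 7 against day 3 (22 to 28 higher) and over the 4 groups (23 to 33) stayed within 1.5 times those given.

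Deviations of same-numbered libraries from their group means had a median correlation of 0.0049 (18 pairs, -0.0831 to 0.21). Those of different number had -0.0069 (36 pairs, -0.231 to 0.195). These values gave no sign that replicate numbers pair the libraries, but with 3 libraries a group they cannot exclude it. With the replicate block, 2 were higher and 23 lower at day 3 than at day 0, 6 and 2 at day 7, and 0 and 0 at day 30; 27 and 0 differed between days 7 and 3, 2 and 10 between days 30 and 7, and 30 over the 4 groups. Median centring moved the median of all genes between days 30 and 7 to 0.10. Depth limits the 7 genes with under 10 reads in a library.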
